A study of Rattus norvegicus with 24 samples.

Results

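miR-375 and miR-7 are microRNAs (miRNAs) best known from hormone-secreting and neurosecretory cells. Their rows were found by name in the count tables of perilesional cortex and ipsilateral thalamus, and 6 of the 728 listed miRNAs belonged to them. The name rule alone, with an arm written after the family name, matched 5 rows, and rno-miR-7b, which is listed without an arm, was added as the 6th. The other 5 were rno-miR-375-3p, rno-miR-375-5p, rno-miR-7a-5p, rno-miR-7a-1-3p and rno-miR-7a-2-3p. The set was chosen with the cortical TBI and sham values in view, so the cortical injury values of its members are given as a description with no test. rno-miR-375-5p had 0 reads in all 24 libraries, which allows up to 3 reads per library, and the other 5 members passed the low-count filter in every comparison.

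The libraries came from 12 adult male Sprague-Dawley rats killed 3 months after surgery. A lateral fluid-percussion injury, a pressure pulse to the exposed dura that models human traumatic brain injury (TBI), was given to 6 rats, and 6 sham rats were anesthetised and operated on but received no pulse. Perilesional cortex and ipsilateral thalamus were taken from each rat, which gave 4 groups of 6 libraries: sham cortex, TBI cortex, sham thalamus and TBI thalamus. The TBI rats had been selected by magnetic resonance imaging for lasting inflammation around the lesion, so they stand for that subset of injured rats, and no genotype, transgene or drug separated the groups. The rat numbers in the sample names tie both regions to 1 animal.

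A miRNA is cut from a hairpin precursor whose 5′ and 3′ sides give the 5p and 3p arms, and 1 arm usually accumulates. Loaded into an Argonaute protein, it represses messenger RNAs that pair with its seed, bases 2 to 8 from the 5′ end. miR-375 is known as a regulator of insulin secretion in pancreatic islet cells and is also made in the pituitary and in secretory epithelia. miR-7 is abundant in islet cells, pituitary and hypothalamic neurons, and in brain it is bound by the circular RNA Cdr1as. In the rat, miR-7a is made from 2 loci that give an identical 5p arm and different 3p arms, and miR-7b comes from another locus.

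The mature sequences of the 6 members are shown because they decide which reads could be told apart. They were read from RefSeq (assembly GRCr8), 5′ to 3′, with the seed in capitals.
rno-miR-375-3p: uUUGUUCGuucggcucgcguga
rno-miR-375-5p: gCGACGAGccccucgcacaaacc
rno-miR-7a-5p: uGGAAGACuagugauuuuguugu
rno-miR-7b: uGGAAGACuugugauuuuguugu
rno-miR-7a-1-3p: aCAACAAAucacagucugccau
rno-miR-7a-2-3p: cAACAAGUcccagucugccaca

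miR-7a-5p and miR-7b had the same seed and differed by 1 substitution, A10U (miR-7a-5p base first, position counted from the 5′ end). A read of either one is therefore assigned by a single base, and since the mismatch rule of the authors' counting is not given in the sources used here, the split between them is uncertain. No other of the 655 listed miRNAs with a sequence carried the GGAAGAC seed. The seeds of miR-375-3p, miR-375-5p and miR-7a-2-3p were found in no other listed miRNA, and that of miR-7a-1-3p was shared with rno-miR-3065-5p. In GRCr8, miR-375-3p lies at chr9:83906591-83906612 on the minus strand, within the bounds of Cryba2, a lens crystallin gene, and of the uncharacterised coding gene LOC134480387. One copy of miR-7a-5p lies at chr17:6278710-6278732 on the plus strand, inside Hnrnpk, which encodes an RNA-binding protein, with miR-7a-1-3p at chr17:6278751-6278772 in the same hairpin. The other copy lies at chr1:142215818-142215840 on the plus strand, within the non-coding RNA gene LOC120099863, with miR-7a-2-3p at chr1:142215856-142215877. miR-7b lies at chr9:1167464-1167486 on the plus strand, within the bounds of the pseudogene Rpl35l3. Only gene bounds were compared, so exon or intron was not assigned.

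A cortical library held 744564 to 4069284 miRNA reads and a thalamic one 523298 to 4139901, and sham rat 55 and TBI rat 56 had the shallowest thalamic libraries. Levels are given as CPM, read counts relative to the size of the library after correction by the trimmed mean of M-values (TMM) over the 24 libraries. Neuronal markers were present in every library, with summed levels of 4 markers between 123000 and 608000 CPM. In bulk tissue, fewer cells of a type and less RNA per cell cannot be told apart.

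The members spanned about 3 orders of magnitude in level, and most of the miR-7 signal was miR-7a-5p. miR-7a-5p ranked between 18th and 26th of 728 miRNAs by group mean and made up 0.711% to 1.45% of miRNA reads. miR-7b ranked between 89th and 147th and miR-375-3p between 192nd and 330th. The 3p arms of miR-7a, the side of the hairpin that is usually degraded, were found at group means of 14.5 to 26.4 CPM. Group means hold 6 libraries each and are followed by their SD.

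**Figure D1:**
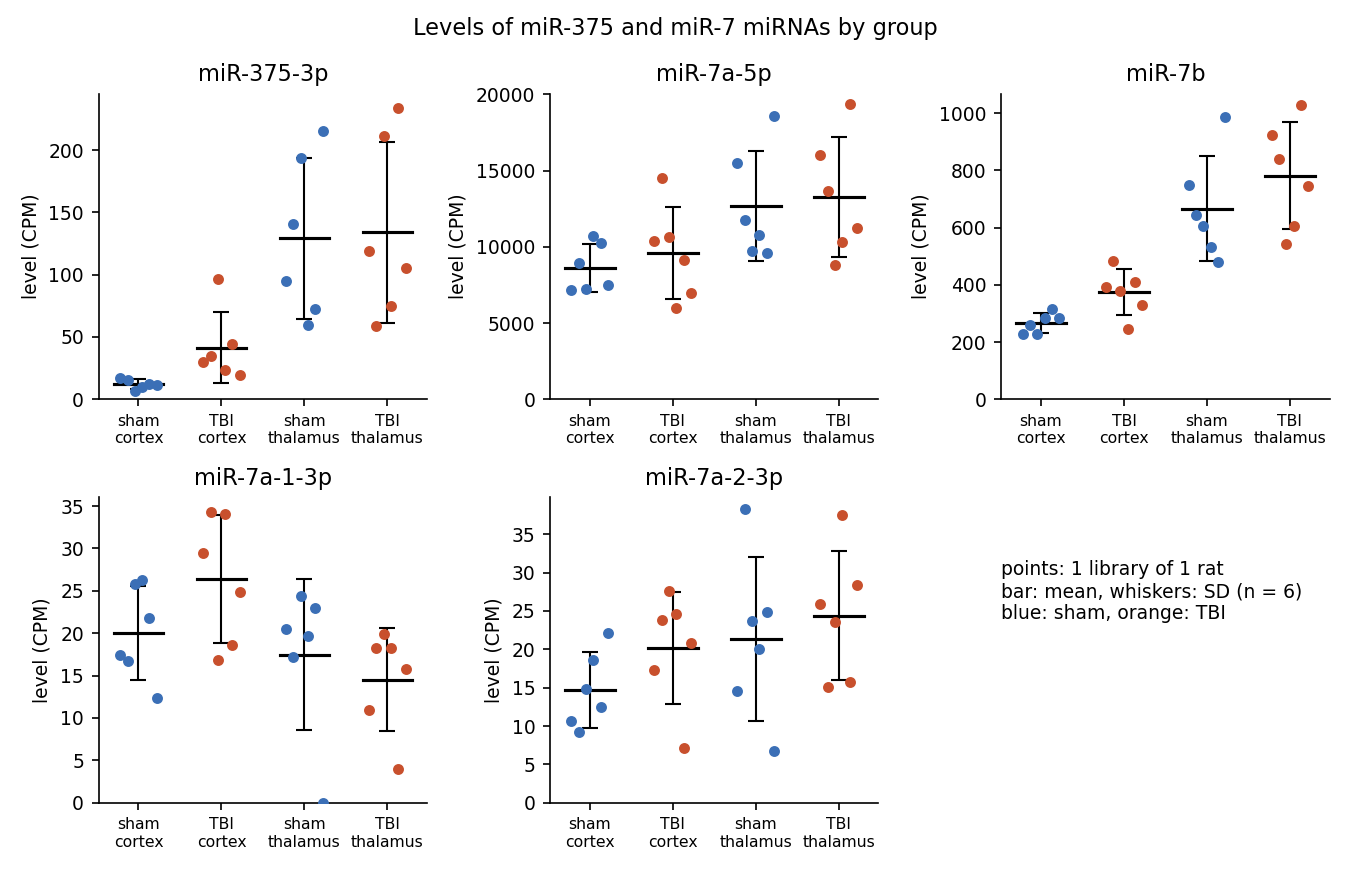
Level in CPM (linear axes from 0) of the 5 members with reads, for 6 libraries in each of the 4 groups, 1 point per rat, with the mean (bar) and SD (whiskers). miR-375-3p and miR-7b stood higher in thalamus than in cortex, TBI rat 45 lay apart at 96.5 CPM of miR-375-3p in cortex, and sham rat 55 had no miR-7a-1-3p in thalamus.

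miR-375-3p had the lowest level of the 3 main members in every group. In sham cortex it ran from 6.87 to 17.4 CPM with a median of 11.8 (8 to 46 reads), a mean of 12.2 ± 3.91 CPM. In TBI cortex it ran from 19.2 to 96.5 CPM with a median of 32.5 (24 to 126 reads), a mean of 41.5 ± 28.3 CPM. All 6 TBI rats lay above all 6 sham rats, and rat 45 at 96.5 CPM lay well above the next TBI rat at 44.5 CPM. The log2 fold change was 1.78 (SE 0.39), the highest of the 371 miRNAs tested in cortex, and it was 1.27 to 1.92 with any 1 rat left out, lowest without rat 45. The values that chose the member are these, so they carry no test. For background, 0.809% of the miRNAs tested in cortex had every TBI library above every sham library, and 5.66% passed an adjusted p of 0.05 in either direction.

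In thalamus the injury groups lay on top of each other for miR-375-3p. Sham thalamus ran from 59.4 to 215 CPM with a median of 118, a mean of 129 ± 64.6 CPM. TBI thalamus ran from 58.7 to 234 CPM with a median of 112, a mean of 134 ± 72.4 CPM. Of the TBI rats, 1 lay above all sham rats and 1 below all of them. The log2 difference was 0.06 (SE 0.39, 95% interval -0.77 to 0.89, adjusted p = 0.986 in edgeR's quasi-likelihood test). With 6 rats a group, changes in either direction inside this interval remain compatible with the values.

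Between the regions of the same rat, miR-375-3p differed in the same direction throughout, by an amount that varied widely between rats. It was higher in thalamus in 12 of 12 rats, by 5.59-fold averaged over TBI and sham (cortex minus thalamus -2.48 on the log2 scale, SE 0.21, adjusted p = 1.12e-08, edgeR with the rat as a block). That difference ranked 6th of 407 miRNAs among those higher in thalamus. Among all miRNAs tested, 22.6% passed as higher in thalamus, 25.6% as higher in cortex, and 9.09% were higher in thalamus in every rat. The fold within a rat ran from 5.45 to 28.1 with a median of 7.58 in sham rats and from 1.69 to 5.48 with a median of 3.55 in TBI rats. These ranges touch at their edges, with TBI rat 63 at 5.48 and sham rat 26 at 5.45. The difference between the groups of rats holds the cortical values that chose the member and was not tested. Even TBI rat 45, with the highest cortical level, had more in its thalamus (212 CPM) than in its cortex (96.5 CPM).

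miR-7a-5p, the main miR-7 of these tissues, differed less. Sham cortex ran from 7163 to 10740 CPM with a median of 8216, a mean of 8635 ± 1576 CPM. TBI cortex ran from 5987 to 14530 CPM with a median of 9748, a mean of 9605 ± 3039 CPM, and extended past sham at both ends, with 1 TBI rat above and 2 below every sham rat. The cortical log2 fold change was 0.19 (SE 0.18), given with no test. Sham thalamus ran from 9610 to 18570 CPM (mean 12660 ± 3617) and TBI thalamus from 8836 to 19390 CPM (mean 13250 ± 3940), where 1 TBI rat lay above and 1 below every sham rat. The thalamic log2 fold change was 0.07 (SE 0.24, 95% interval -0.45 to 0.58, adjusted p = 0.982 in edgeR). Across regions, miR-7a-5p was 1.41-fold higher in thalamus (cortex minus thalamus -0.50, SE 0.14, adjusted p = 0.00683, edgeR with the rat as a block), in 9 of 12 rats. The highest thalamic levels, 18570 CPM in sham rat 55 and 19390 CPM in TBI rat 56, were in the shallowest thalamic libraries. The same libraries were the highest of their groups for miR-375-3p (215 and 234 CPM) and miR-7b (987 and 1029 CPM). Without these 2 rats the log2 difference between cortex and thalamus was -0.37 for miR-7a-5p (adjusted p = 0.02), -2.34 for miR-375-3p (adjusted p = 4.46e-08) and -1.10 for miR-7b (adjusted p = 3.23e-07, edgeR).

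miR-7b, with the seed of miR-7a-5p, was a minor species with a clearer pattern. Sham cortex ran from 229 to 317 CPM with a median of 273 (204 to 760 reads), a mean of 268 ± 34.9 CPM. TBI cortex ran from 246 to 485 CPM with a median of 386, a mean of 374 ± 80.5 CPM. In cortex 5 of 6 TBI rats lay above every sham rat, and TBI rat 52 at 246 CPM lay within the sham range. The cortical log2 fold change was 0.52 (SE 0.16), given with no test.

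In thalamus miR-7b ran from 480 to 987 CPM in sham (mean 666 ± 183) and from 543 to 1029 CPM in TBI (mean 781 ± 187). Of the TBI rats, 1 lay above every sham rat, and the log2 fold change was 0.24 (SE 0.23, 95% interval -0.25 to 0.72, adjusted p = 0.815 in edgeR). Every thalamic library, at 480 CPM or more, lay above every sham cortex library, and only TBI cortex rat 24, at 485 CPM, reached the thalamic range. Within rats, miR-7b was 2.25-fold higher in thalamus (cortex minus thalamus -1.17, SE 0.12, adjusted p = 1.85e-07, edgeR with the rat as a block), in 12 of 12 rats.

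**Figure D2:**
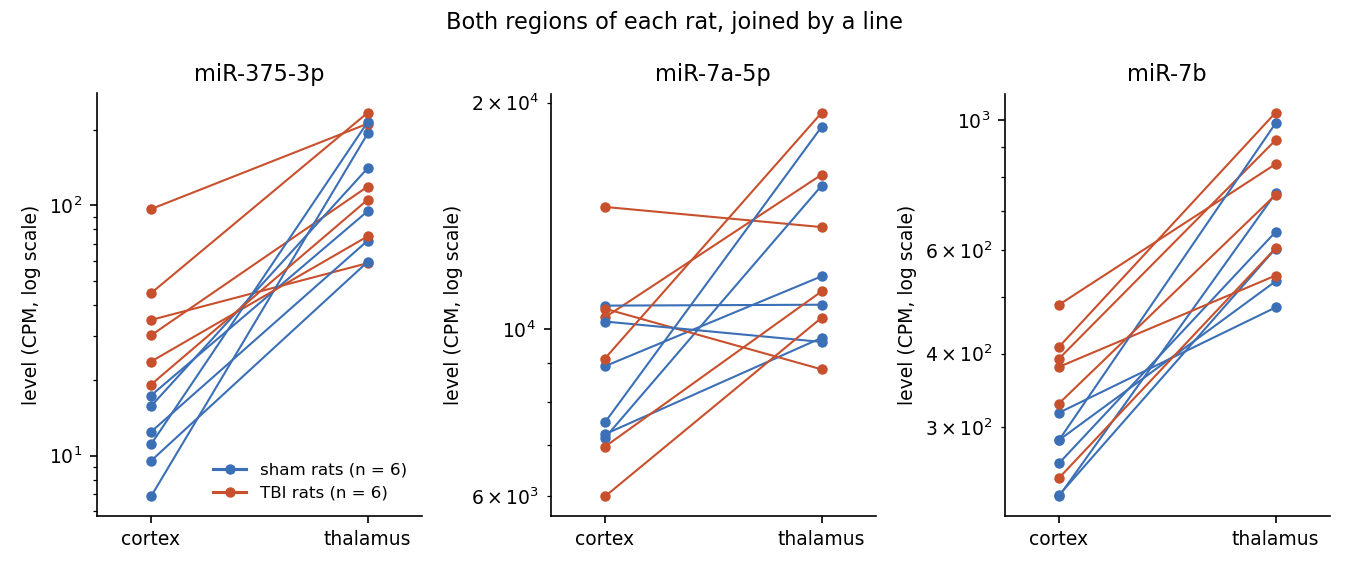
Level in cortex and thalamus (CPM, log axes) of miR-375-3p, miR-7a-5p and miR-7b, with 1 line per rat joining its 2 libraries, for 6 sham (blue) and 6 TBI (orange) rats. All 12 lines rise towards thalamus for miR-375-3p and for miR-7b, and 9 of 12 do for miR-7a-5p.

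The proportion of miR-7b among reads with the miR-7 seed needs no scaling between libraries. miR-7b made up 3.04% ± 0.355 of miR-7a-5p plus miR-7b reads in sham cortex (2.59% to 3.65%) and 3.84% ± 0.497 in TBI cortex (3.23% to 4.51%), where 3 of 6 TBI rats lay above every sham rat. It made up 5.03% ± 0.459 in sham thalamus (4.61% to 5.85%) and 5.64% ± 0.404 in TBI thalamus (5.04% to 6.23%). Each of the 12 thalamic shares was above each of the 12 cortical shares. The widest Wilson 95% interval of a single cortical library was that of TBI rat 56 (4.30%, 3.84% to 4.82%, from 6648 reads), and it covers counting error only.

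Within rats the share was 1.89 percentage points higher in thalamus (SD 0.573, range 0.736 to 2.77), in 12 of 12 rats. The exact sign-flip permutation test over the 12 rats gave a two-sided p of 0.000488, the smallest it can give, and 0.00195 after Benjamini-Hochberg adjustment over 4 tests of shares. In thalamus the share was 0.612 percentage points higher in TBI than in sham, with 1 of 6 TBI rats above every sham rat. The exact two-sided permutation test gave p = 0.0455, and the adjusted value of 0.0677 did not pass. Of the 12 repeats with 1 rat left out, only 1 passed (adjusted p 0.026 to 0.13, exact permutation). That was the repeat without sham rat 34, whose thalamic share of 5.85% was the highest of the sham group, with a difference of 0.776 points.

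**Figure D3:**
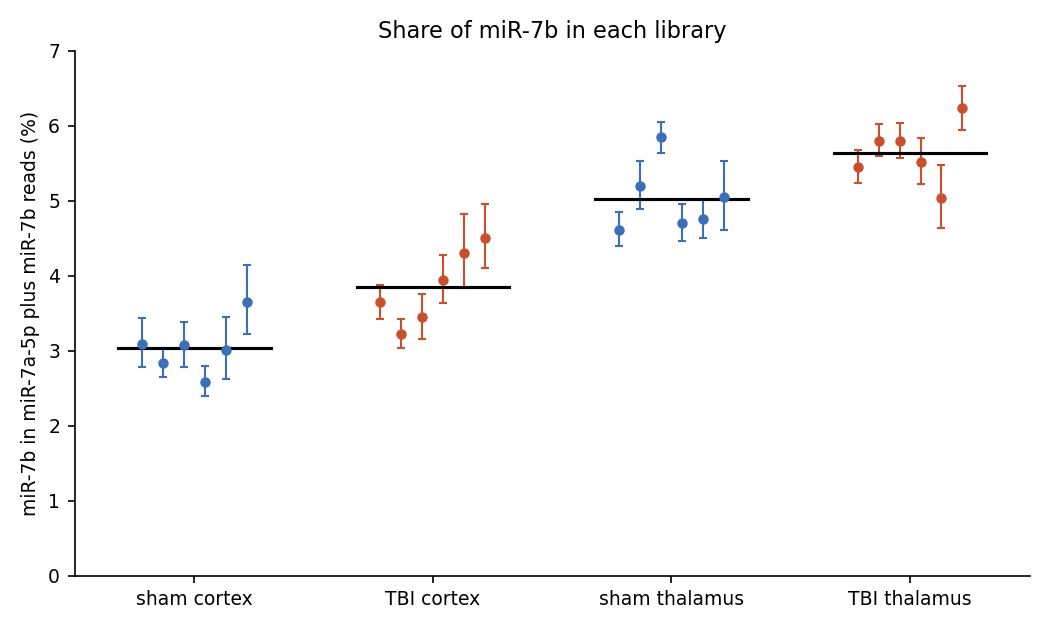
Share of miR-7b in miR-7a-5p plus miR-7b reads (percent, axis from 0), for 6 libraries in each of the 4 groups, with the Wilson 95% interval of each library as whiskers and the group mean as a bar. The thalamic shares, from 4.61% to 6.23%, lie above the cortical shares, from 2.59% to 4.51%.

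The 3p arms of miR-7a tell its loci apart, since the 5p arm is the same from both. miR-7a-1-3p, from the Hnrnpk locus, had 20.1 ± 5.52 CPM in sham cortex (12.3 to 26.3) and 26.4 ± 7.55 CPM in TBI cortex (16.8 to 34.4), with a cortical log2 fold change of 0.46 (SE 0.23) and no test. In thalamus it ran from 0 to 24.4 CPM in sham, with a median of 20.1, and from 3.93 to 20.0 CPM in TBI, with a median of 17.0. The lowest libraries were again the shallow ones, sham rat 55 with 0 reads, which allows up to 6.71 CPM, and TBI rat 56 with 2 reads. The thalamic log2 fold change was -0.29 (SE 0.40, adjusted p = 0.851 in edgeR). Across regions miR-7a-1-3p was the only member that was higher in cortex, by 0.50 on the log2 scale (SE 0.20, adjusted p = 0.044, edgeR with the rat as a block), in 8 of 12 rats. That call is fragile, since it held in 3 of the 12 fits with 1 rat left out (adjusted p 0.0281 to 0.139) and was lost with library size as the only scaling (0.18, adjusted p = 0.516).

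miR-7a-2-3p, from the LOC120099863 locus, had 14.7 ± 4.95 CPM in sham cortex (9.25 to 22.2) and 20.2 ± 7.28 CPM in TBI cortex (7.18 to 27.6), with a cortical log2 fold change of 0.57 (SE 0.29) and no test. It had 21.4 ± 10.7 CPM in sham thalamus (6.71 to 38.3) and 24.4 ± 8.41 CPM in TBI thalamus (15.2 to 37.6), and the log2 fold change there was 0.16 (SE 0.31, adjusted p = 0.923 in edgeR). Across regions the difference of -0.42 (SE 0.22, adjusted p = 0.117, edgeR with the rat as a block) did not pass, with 9 of 12 rats higher in thalamus. It passed with library size as the only scaling (-0.74, adjusted p = 0.0191) and without the 2 rats with the shallowest thalamic libraries (-0.51, adjusted p = 0.037). With 1 rat left out it ran from -0.62 to -0.25 and passed in 3 of 12 fits, those without rat 24, 45 or 55.

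Both 3p arms together made up 0.408% ± 0.0944 of all miR-7a reads in sham cortex, 0.528% ± 0.248 in TBI cortex, 0.348% ± 0.184 in sham thalamus and 0.333% ± 0.169 in TBI thalamus. The share differed by -0.128 percentage points (thalamus minus cortex within rats), with 9 of 12 rats lower in thalamus, and this missed the threshold (exact sign-flip permutation p = 0.0508, adjusted 0.0677). TBI and sham thalamus differed by -0.0152 points (exact permutation p = 0.879). Among the 3p reads alone, miR-7a-1-3p made up 58.0% ± 11.1 in sham cortex and 57.4% ± 11.3 in TBI cortex, against 39.6% ± 21.4 in sham thalamus and 36.4% ± 12.3 in TBI thalamus. It was lower in thalamus in 11 of 12 rats. This last share was added after the counts had been seen, rests on as few as 3 reads in a library, and was given no test.

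Taken by comparison, 0 of the 5 members passed for TBI against sham in thalamus, in edgeR or in DESeq2, and 0 had an unadjusted p under 0.05. The background there was low, with 0.513% of 390 miRNAs called and 1.03% with every TBI library above every sham library. Across regions 3 of 5 members passed as higher in thalamus (miR-375-3p, miR-7b and miR-7a-5p) and 1 as higher in cortex (miR-7a-1-3p), and 2 of 5 were higher in thalamus in every rat. Over all 407 miRNAs tested, the same 3 shares were 22.6%, 25.6% and 9.09%. With library size as the only scaling the median cortex minus thalamus difference of all miRNAs was -0.29 on the log2 scale, against 0.02 in the reported fit. The split over all miRNAs changed from 104 higher in cortex and 92 higher in thalamus to 49 and 170. The 3 members higher in thalamus passed under every scaling that was run.

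**Figure D4:**
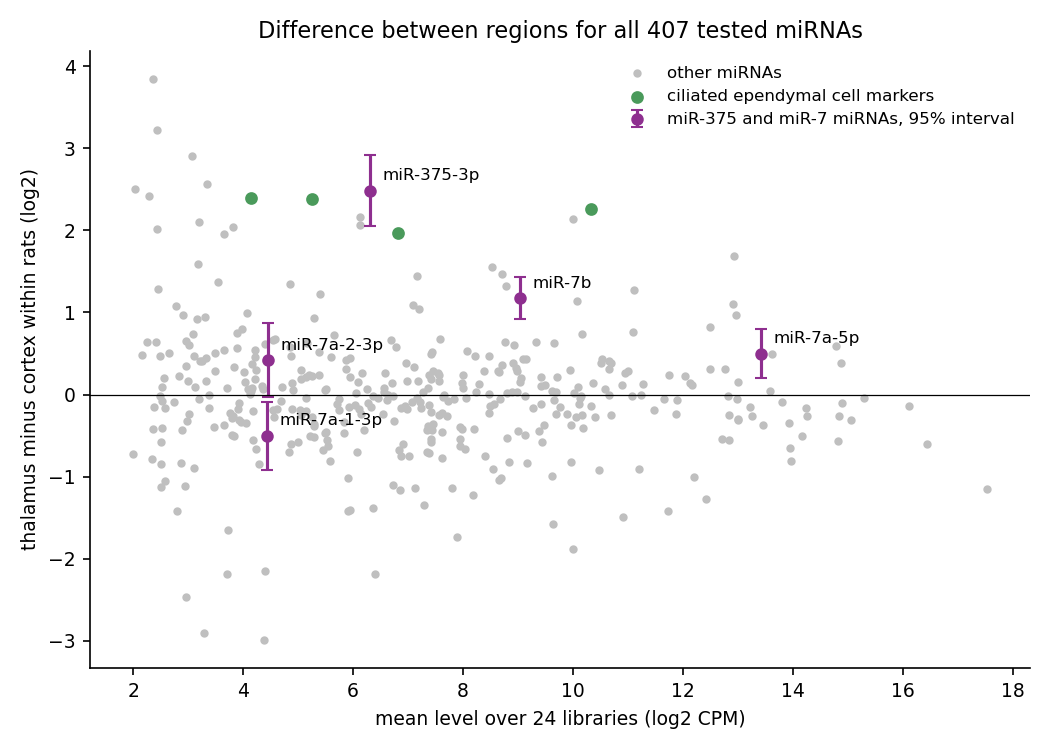
Thalamus minus cortex within rats (log2) against mean level over the 24 libraries (log2 CPM) for the 407 miRNAs tested, with the 5 members in purple with 95% intervals and 4 ciliated ependymal cell markers in green. miR-375-3p lies near the markers, 5.59-fold higher in thalamus, above miR-7b and miR-7a-5p.

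Levels in cortex and thalamus of the same rat were compared within TBI and within sham rats for the 4 members with reads in all 24 libraries, 8 relations in all. None passed, with adjusted p from 0.572 to 0.628 (exact permutation). For miR-375-3p, Pearson's r over 6 TBI rats was 0.64 (exact permutation p = 0.186; Spearman's rho 0.54, exact p = 0.297) and 0.65 without the 2 rats farthest from the median. In 6 sham rats r was -0.24 (exact permutation p = 0.628; rho -0.14, exact p = 0.803) and 0.37 without the 2 farthest. For miR-7b, r was 0.55 in TBI and -0.29 in sham rats, and for miR-7a-5p it was 0.27 and -0.55. For miR-7a-2-3p, r was 0.48 in TBI rats and -0.71 in sham rats (exact permutation p = 0.125), and the latter turned to 0.41 without the 2 farthest rats.

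The miRNAs whose levels followed miR-375-3p most closely over the 24 libraries were miR-34c-5p (Spearman's rho 0.92), miR-34c-3p (0.87) and miR-34b-3p (0.86), out of 406 compared. The 24 libraries share region, rat and depth, so these are descriptions. For deviations from the 4 group means the values were 0.66, 0.41 and 0.35. miR-34b and miR-34c are abundant in cells with motile cilia, among them the ependymal cells that line the ventricles, and all 3 were on the list of 6 ciliated ependymal cell markers. miR-34c-5p averaged 318 ± 134 CPM in sham cortex, 546 ± 294 in TBI cortex, 2092 ± 797 in sham thalamus and 2154 ± 1830 in TBI thalamus. In the cortex of TBI rat 45 it reached 1109 CPM, the highest of the 12 cortical libraries, as miR-375-3p did.

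**Figure D5:**
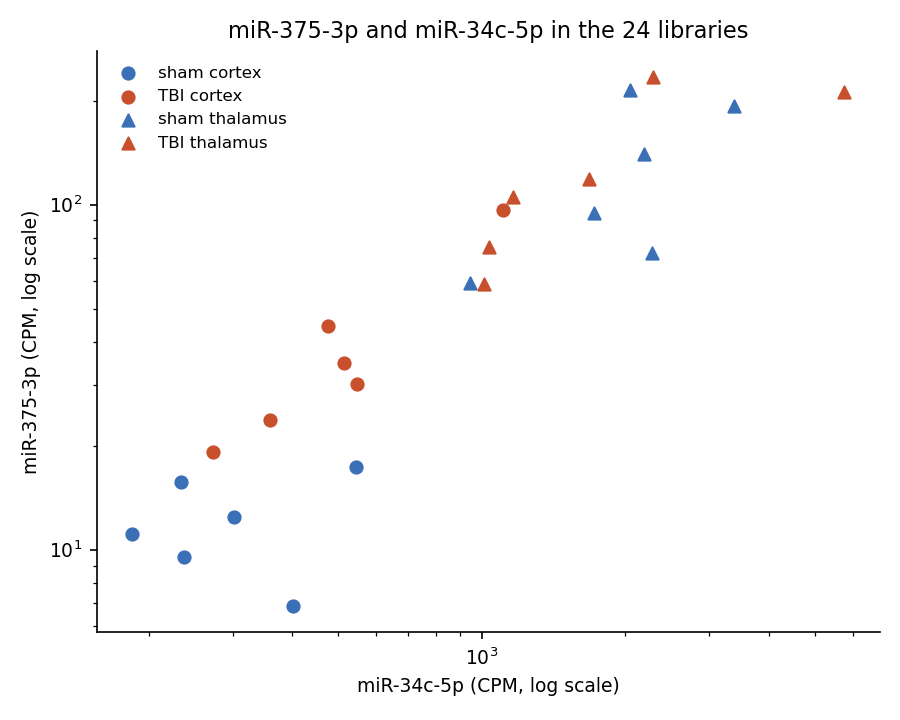
miR-375-3p against miR-34c-5p (CPM, log axes) in the 24 libraries, with cortex as circles, thalamus as triangles, sham in blue and TBI in orange. The points rise together from sham cortex (6.87 to 17.4 CPM of miR-375-3p) to thalamus (58.7 to 234 CPM), and the TBI cortex library of rat 45 lies beside the thalamic ones.

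The summed level of the ciliated ependymal cell list was, like miR-375-3p, lowest in sham cortex by median and higher in both thalamic groups. Most of this sum was miR-34c-5p (in rat 45, 1109 of 1286 CPM in cortex and 5754 of 6501 CPM in thalamus). The sum therefore largely repeats the values of that 1 miRNA. It ran from 211 to 616 CPM in sham cortex, 300.1 to 1290 in TBI cortex, 1090 to 3700 in sham thalamus and 1140 to 6500 in TBI thalamus. Rat 45 was the highest of its group in both regions, at 1286 CPM in cortex (next TBI rat 628) and 6501 CPM in thalamus (next 2618). The libraries did not follow the list one by one: in TBI thalamus rat 45 had less miR-375-3p (212 CPM) than rat 56 (234 CPM), and sham cortex rat 34 had the second highest list sum (456 CPM) with the lowest miR-375-3p (6.87 CPM). In the list, 4 of 4 tested markers were higher in thalamus within rats, from 3.91-fold for miR-34b-5p to 5.27-fold for miR-34c-3p. None of the 3 tested in cortex or the 4 tested in thalamus passed for TBI against sham (edgeR). The cortical log2 fold change was 0.81 (SE 0.33, adjusted p = 0.158 in edgeR) for miR-34c-5p and 1.39 (SE 0.44, adjusted p = 0.073) for miR-34b-3p. miR-34c-3p was not tested in cortex, where its low counts did not pass the filter. Its mean there was 2.35 CPM in sham (0 to 3.631) and 7.218 CPM in TBI (1.436 to 12.25). It was among the cortical miRNAs the authors had picked from these same libraries. Their droplet digital PCR found no significant change in it. miR-449c-5p had 0 reads in every library, and miR-449a-5p had 10 or fewer. The part of these cells in the miR-375-3p values was not tested.

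Choroid plexus epithelium, the secretory lining that makes cerebrospinal fluid, is marked by miR-204 and miR-211. Its list summed to 1040 to 1980 CPM in sham cortex, 988 to 2280 in TBI cortex, 1200 to 5020 in sham thalamus and 999 to 14000 in TBI thalamus, and rat 45 was again the highest of its group in both regions. Most of this sum was miR-204-5p, at 1259 to 3530 CPM by group mean. Both arms of miR-204 were higher in thalamus (1.70-fold for miR-204-5p, adjusted p = 0.0153, and 1.65-fold for miR-204-3p, adjusted p = 0.00362, edgeR). The third marker tested across regions, miR-211-5p, leaned towards cortex and did not pass (1.15-fold, adjusted p = 0.603, edgeR). miR-211-5p passed as higher in TBI cortex (log2 fold change 1.33, SE 0.34, adjusted p = 0.0369 in edgeR), the only one of the 3 tested. The authors had picked miR-211-5p from these same cortical libraries, so its call is a description and no independent test. miR-211-3p had 0 reads in sham thalamus. The part of these cells in the members' values was not tested.

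Levels of miR-7b followed miR-3547 (rho 0.88), miR-219a-2-3p (0.85) and miR-298-5p (0.85) most closely over the 24 libraries, and those of miR-7a-5p followed miR-7b (0.82), miR-3547 (0.68) and let-7i-5p (0.68). For deviations from group means, miR-7a-5p and miR-7b stood at 0.93, while miR-7b stood at 0.55 with miR-3547, 0.27 with miR-219a-2-3p and 0.07 with miR-298-5p. miR-219a-2-3p, which marks oligodendrocytes, the myelinating cells, averaged 3500 ± 341 CPM in sham cortex and 11850 ± 2836 in sham thalamus. The 3 oligodendrocyte markers were all higher in thalamus within rats and summed to 3580 to 4320 CPM in sham cortex, 3480 to 4990 in TBI cortex, 10100 to 17600 in sham thalamus and 11100 to 14300 in TBI thalamus, with none at 0. The 4 neuronal markers were all higher in cortex (summed 328000 to 608000 CPM in sham cortex, 249000 to 332000 in TBI cortex, 168000 to 325000 in sham thalamus and 123000 to 245000 in TBI thalamus). Their part in the region differences of the members was not tested.

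The microglia and leukocyte list, of interest in tissue picked for inflammation, summed to 788 to 1280 CPM in sham cortex, 861 to 1870 in TBI cortex, 738 to 1180 in sham thalamus and 1030 to 1970 in TBI thalamus. Most of this sum was miR-150-5p, at 918 to 1293 CPM by group mean. None of its 4 markers tested in cortex or 3 in thalamus passed for TBI against sham (edgeR), and across regions 1 passed in each direction (miR-142-3p and miR-223-3p). Of the endothelial and mural list, 2 of 4 were higher in cortex (miR-143-3p and miR-145-5p) and none passed for injury. Of the red cell list, 1 of 3 tested was higher in cortex (miR-451-5p) and none passed for injury. Of the muscle list, 3 of 4 were higher in cortex (miR-1-3p, miR-133a-3p and miR-133b-3p), and miR-1-3p passed as lower in TBI cortex. Of the neuronal list, miR-128-3p passed as lower in TBI cortex. It was among the cortical miRNAs the authors had picked from these same libraries, so its call is a description and no independent test.

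Other miRNAs known from endocrine and secretory epithelial cells did not share one pattern with miR-375-3p and miR-7. The list held 10 miRNAs of the miR-200, miR-183, miR-153 and miR-184 families, and 5 were tested in cortex, 4 in thalamus and 6 across regions. None passed for TBI against sham in cortex (median log2 fold change 0.77, against 0.05 over all miRNAs) or in thalamus (0.05, against -0.03). The cortical median rested on rat 45, which had the highest TBI cortex level of 7 of the 10, among them miR-183-5p (62.0 CPM, next 10.8), miR-182 (62.8, next 16.4), miR-200a-3p (64.3, next 8.00) and miR-200b-3p (39.1, next 4.03). Without rat 45, an alternative chosen after seeing the data, the median was 0.02, as over all miRNAs, and miR-183-5p turned from 0.77 to -0.38, with none passing (edgeR). Across regions 3 were higher in cortex and 1 in thalamus. miR-153-3p, found in neurons as well as islet cells and the most abundant of the list, was 1.52-fold higher in cortex (adjusted p = 0.0158, edgeR). miR-184 was 2.69-fold (adjusted p = 0.00152) and miR-200a-3p 1.78-fold higher in cortex (adjusted p = 0.0351, edgeR), both at low levels of 15 CPM or less by group mean. For miR-200a-3p the TBI cortex mean of 14.7 ± 24.4 CPM held the high value of rat 45. Its sham means lay close together, at 3.89 CPM in cortex and 3.24 CPM in thalamus. miR-182 was 1.53-fold higher in thalamus (adjusted p = 0.028, edgeR).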

How the data were processed

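Small RNA libraries of 24 samples (12 rats, 2 regions) were made and sequenced by a service laboratory, which mapped the reads to rat genome RGSC3.4 and annotated them with miRBase 20. The aligner and counter are not given in the sources used here. The files deposited by the authors hold raw read counts per miRNA, 1 column per library. The deposited CPM tables of the same libraries were not used. Members and lists were chosen with earlier results of these data known.

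The miRNA rows of both regions were joined (728 miRNAs). Levels are CPM, scaled by the trimmed mean of M-values (TMM) over the 24 libraries. edgeR 4.0.16 (R 4.3.3) was fitted to all miRNAs after filterByExpr, with its quasi-likelihood test and Benjamini-Hochberg adjustment over all miRNAs tested. TBI and sham were compared within a region, and regions within rats with the rat as a block. This pairing comes from the rat numbers in the sample names. Deviations of the 2 libraries of a rat from their group means correlated at -0.18 to 0.64 (median 0.38), over 0.1 in 8 of 12 rats. Those not over 0.1 were all sham, namely rats 26 (-0.02), 32 (-0.17), 50 (-0.18) and 55 (-0.07). TBI rats ran from 0.30 to 0.64, so the values back the pairing less well in sham rats. Shares were compared with exact permutation tests. Log2 CPM for correlations used a prior count of 2. A count of 0 allows 3 reads. PCR copies were not removed, so intervals cover counting error only.

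Named were all members, the 3 miRNAs nearest to each main member, and list members that passed or were the most abundant. Alternatives were DESeq2 1.42.0, other scalings, no filter, other sets of libraries and leaving out rats. Scripts were tested on simulated data. miRNA sequences were matched by name to RefSeq (GRCr8).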

Additional observations from a re-analysis of the deposited data

Results flagged for a closer look

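Examined by group were 36 sets of 6 libraries, namely levels and shares of the members and the total miRNA reads. Of these, 3 held a library set apart from the rest by a large gap. For normally distributed values, a shape not checked here, chance gives such a gap in about 5% of sets, or 1.8 of 36. miR-375-3p in the cortex of TBI rat 45 was 96.5 CPM, with the next library at 44.5 CPM. That gap was 0.673 of the range of the group. The same rat had the highest summed ciliated ependymal and choroid plexus marker levels of its group in both regions. It was also highest in both for the endothelial and mural list (60660 CPM in cortex, 54250 in thalamus). The same held for the list of other endocrine miRNAs (313 and 234 CPM). For the neuronal list it was the lowest of its group in both regions (249300 and 123200 CPM).

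miR-7a-1-3p in the thalamus of sham rat 55 had 0 CPM, with the next library at 17.2 CPM. The share of miR-7a-1-3p in both 3p arms in the cortex of sham rat 55 was 35.7%, with the next library at 58.6%. That share rests on 10 of 28 reads (Wilson 95% interval 20.7% to 54.2%).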

How the results depend on the processing

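Of 386 recomputed values, 339 were counted as kept. Values of members, shares and relations had to keep their direction and side of the threshold, or move by less than the spread between replicates. Counts of called miRNAs only had to stay near the reported count. The 30 cortical calls without sham rat 55, against 21, were thus counted as kept. Over all miRNAs in cortex, 21 were called, against 41 with DESeq2, 39 with library size only (a shift of the median of 0.25 on the log2 scale), 1 with scaling to 4 reference miRNAs, 5 with all 24 libraries in 1 fit, and 4 to 30 with 1 rat left out. In thalamus 2 were called, against 0 with the reference miRNAs (22 of 390 had an unadjusted p under 0.05 in the reported fit, and DESeq2 called 3), 5 with all 24 libraries, and 0 to 2 with 1 rat left out. Across regions 196 were called, and 179 to 220 with 1 rat left out.

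Without the replicate block that pairs the regions of a rat, 164 were called across regions, and miR-7a-1-3p lost its call (0.46, adjusted p = 0.134). The pairing changed no other member's call. In thalamus, TBI minus sham for miR-375-3p ran from -0.07 to 0.35 with 1 rat left out, below 0 without rat 38 (-0.04), 45 (-0.05) or 56 (-0.0721). miR-7a-5p ran from -0.02 to 0.28, below 0 without rat 34 (-0.0169) or 56 (-0.01).

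The thalamic TBI minus sham share of 3p reads in miR-7a ran from -0.0775 to 0.031 percentage points with 1 rat left out. It was above 0 without rat 22 (0.00544), 24 (0.00241), 32 (0.00919), 34 (0.0137), 50 (0.0142) or 56 (0.031). The region difference of that share ran from -0.156 to -0.0998 and passed without rat 32 or 50 (adjusted p 0.043 and 0.0469, exact permutation). The thalamic injury difference of the miR-7b share ran from 0.494 to 0.776 points and passed only without rat 34. The causes were not tested. Leaving out both rats with shallow thalamic libraries was chosen after seeing the data. Depth limits the 3p arms, with 118 reads or fewer in every library, and miR-375-3p in sham cortex, with 46 or fewer.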
